A study of Mus musculus with 57 samples.

Results

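Collagens are the structural proteins of the extracellular matrix, built from alpha chains that wind around each other into a helix. The genes described here are the 44 protein-coding genes of the GENCODE M21 mouse annotation whose symbol is that of a collagen alpha chain (Col, a type number, a, and a chain number), out of 55450 genes in the count table. They fall into 9 classes, of which the 6 chains of type IV (Col4a1 to Col4a6) and the 6 fibrillar chains of types I, III and V (Col1a1, Col1a2, Col3a1, Col5a1, Col5a2 and Col5a3) are set against each other. The remaining members are 5 further fibrillar chains, 6 type VI chains, 3 short chains, 9 FACIT chains (fibril-associated collagens with interrupted helices), 2 multiplexins, 4 transmembrane collagens and 3 genes outside these classes.

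Type IV collagen forms the sheet-like network of basement membranes, the thin matrix on which epithelia rest, and its Col4a1 and Col4a2 chains occur in nearly all basement membranes, those of the early embryo included. Types I, III and V form the fibres of connective tissue and are typical products of mesenchymal cells. Parietal endoderm, an extraembryonic cell type of the rodent embryo, lays down the thick basement membrane known as Reichert's membrane and is known for a large output of type IV collagen and laminin.

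The cells were mouse embryonic stem cells of the line Sox1-EGFP/FoxA2mCherry, in which EGFP replaces 1 allele of Sox1, a neuroectoderm gene, and mCherry is joined to FoxA2, an endoderm gene; the line is a single selected clone. Cells taken from serum with LIF were differentiated with retinoic acid (1 uM) in N2B27 medium for 2, 4 or 6 days and sorted by both reporters into Sox1-FoxA2- (double-negative), Sox1+FoxA2-, then Sox1-FoxA2+ and finally Sox1+FoxA2+ (double-positive) cells, while day 0 gave Sox1-FoxA2- cells only. Progeny were cells sorted at day 2 as Sox1+FoxA2-, Sox1-FoxA2+ or Sox1+FoxA2+, replated in serum medium without LIF with the same dose of retinoic acid and harvested at day 4 or day 6, so replating, medium and the lack of a second sort cannot be told apart. Each of the 19 conditions had 3 libraries, which the study calls biological replicates and the labels only number; p-values measure the spread between these libraries.

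The 57 bulk RNA-seq libraries (39 sorted and 18 progeny) held 10170632 to 81845651 counts, with a median of 36694379. A level below is a library-size normalized count (DESeq2 size factors) per kb of exon sequence that lies outside other genes, and tests were run on the counts. Reads had been counted over whole genes, introns included, without strand: all 1287 protein-coding genes that lie inside another gene had 0 counts, against 2.71% of 20664 genes that do not. Col10a1, which lies inside another gene, therefore had no measurement, and 43 members were measured. Of the nonzero counts of members, 79.5% were even numbers (80.6% over all genes). In bulk RNA, fewer cells of a type and less RNA per cell cannot be told apart.

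Foxa2 checked the sort. Its normalized count, not divided by length, was 1478 to 3241 in sorted Sox1-FoxA2+ cells of days 2, 4 and 6 and at most 324 in sorted Sox1+FoxA2- and Sox1-FoxA2- cells. Sorted Sox1+FoxA2+ libraries had 1067 to 1956 at day 2 and 214 to 1091 at day 4, and at day 6 replicates 1, 2 and 3 had 0, 728 and 76.6. The library labelled Sox1+FoxA2+ replicate 1 at day 6 thus had 0 Foxa2 counts, against its label, and replicate 3 at day 6 and replicate 1 at day 4 (214) lay within the range of the cells sorted as FoxA2-negative. Tests on sorted Sox1+FoxA2+ cells of day 4 and day 6 are therefore given with and without these 3 libraries, 1 at a time. Sox1 lies inside another gene, Sox1ot, and had 0 counts in every library, so the EGFP gate has no such check.

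Col4a1 and Col4a2, on which most of the results below turn, share a promoter region and are shown first. In GRCm38, Col4a1 (ENSMUSG00000031502.11) lies on the minus strand at chr8:11198423-11312826 and Col4a2 (ENSMUSG00000031503.13) on the plus strand at chr8:11312805-11449287, head to head, and the annotated genes overlap by 22 bp. The windows below, from RefSeq on GRCm38.p6, run from 250 bases before to 50 bases after each gene's start and are written 5′ to 3′ on the gene's own strand, at chr8:11312777-11313076 for Col4a1 and chr8:11312555-11312854 for Col4a2. Capitals mark the 78 bp that both windows hold, as reverse complements of each other.
Col4a1: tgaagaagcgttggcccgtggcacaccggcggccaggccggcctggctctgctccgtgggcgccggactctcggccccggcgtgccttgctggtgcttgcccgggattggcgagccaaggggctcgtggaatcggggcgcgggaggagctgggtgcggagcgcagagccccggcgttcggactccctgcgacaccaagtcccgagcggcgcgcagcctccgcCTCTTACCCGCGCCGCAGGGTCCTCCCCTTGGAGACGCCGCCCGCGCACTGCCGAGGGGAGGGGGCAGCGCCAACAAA
Col4a2: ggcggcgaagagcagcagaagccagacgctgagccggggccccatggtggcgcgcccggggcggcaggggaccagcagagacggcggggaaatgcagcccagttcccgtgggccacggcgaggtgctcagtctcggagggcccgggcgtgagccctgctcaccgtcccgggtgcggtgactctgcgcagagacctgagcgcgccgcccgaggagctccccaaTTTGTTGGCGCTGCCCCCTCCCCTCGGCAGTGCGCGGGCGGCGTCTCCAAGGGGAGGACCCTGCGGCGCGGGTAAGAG

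GC made up 74% and 73.7% of these windows, against a median of 52.7% over 32817 mouse promoter windows of the same length. On the strand as written, GGGCGG, the GC box, stood 0 times in the Col4a1 window and 2 times in the Col4a2 window, and 1 time in each on the other strand; 35.6% of all windows held it on either strand. CCAAT, the CCAAT box, stood on the other strand of the Col4a1 window and as written in the Col4a2 window, 1 time each (37.4% of windows). Neither window held TATAAA, the core promoter box, on either strand, which 13.6% of windows did. The motif AGATAA of GATA factors was likewise in neither (11.2% of windows). Of the forkhead motifs, TGTTTAC was in neither window and present in 3.65% of all windows. The variant TATTTAC was also in neither (3.04%). The other type IV genes have the same arrangement, Col4a4 and Col4a3 with 71 bp between their starts and Col4a6 and Col4a5 with 1308 bp.

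The collagen part of the transcriptome differed widely between conditions. The members together took 0.0429% of all counts on average in day 0 cells, 1.31% (0.871 to 2.13 over 3 libraries) in day 6 Sox1-FoxA2+ cells and 1.7% (1.36 to 1.96) in day 6 progeny of Sox1-FoxA2+ cells. Col18a1, whose product is a basement membrane proteoglycan, had the highest mean level per kb of exon among the members in every sorted Sox1-FoxA2- and Sox1+FoxA2- condition, from 1401 at day 0 to 6667 in day 2 Sox1+FoxA2- cells. The counts take in introns, and per kb of gene span Col3a1 stood above Col18a1 in day 6 Sox1-FoxA2- cells (mean normalized counts per kb of span 239.6 against 109.7), while Col18a1 led in the other conditions named. Col4a1 led in Sox1-FoxA2+ cells from day 4 on, on either scale. Col4a1 and Col4a2 together made up 10.9% of the summed level of the members at day 0, 27.8% in Sox1-FoxA2+ cells at day 2, 90.1% at day 4, 95.3% at day 6 and 96.7% in their day 6 progeny. In day 6 Sox1+FoxA2+ cells this share ran from 24.8% to 82.3% between the 3 libraries, and in day 6 Sox1+FoxA2- cells from 4.59% to 9.84%. It was larger in day 6 progeny of Sox1+FoxA2- cells, at 42% (34.3 to 51.3). Day 6 progeny of Sox1+FoxA2+ cells had 71.4% (68.1 to 75.4).

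**Figure D1:**
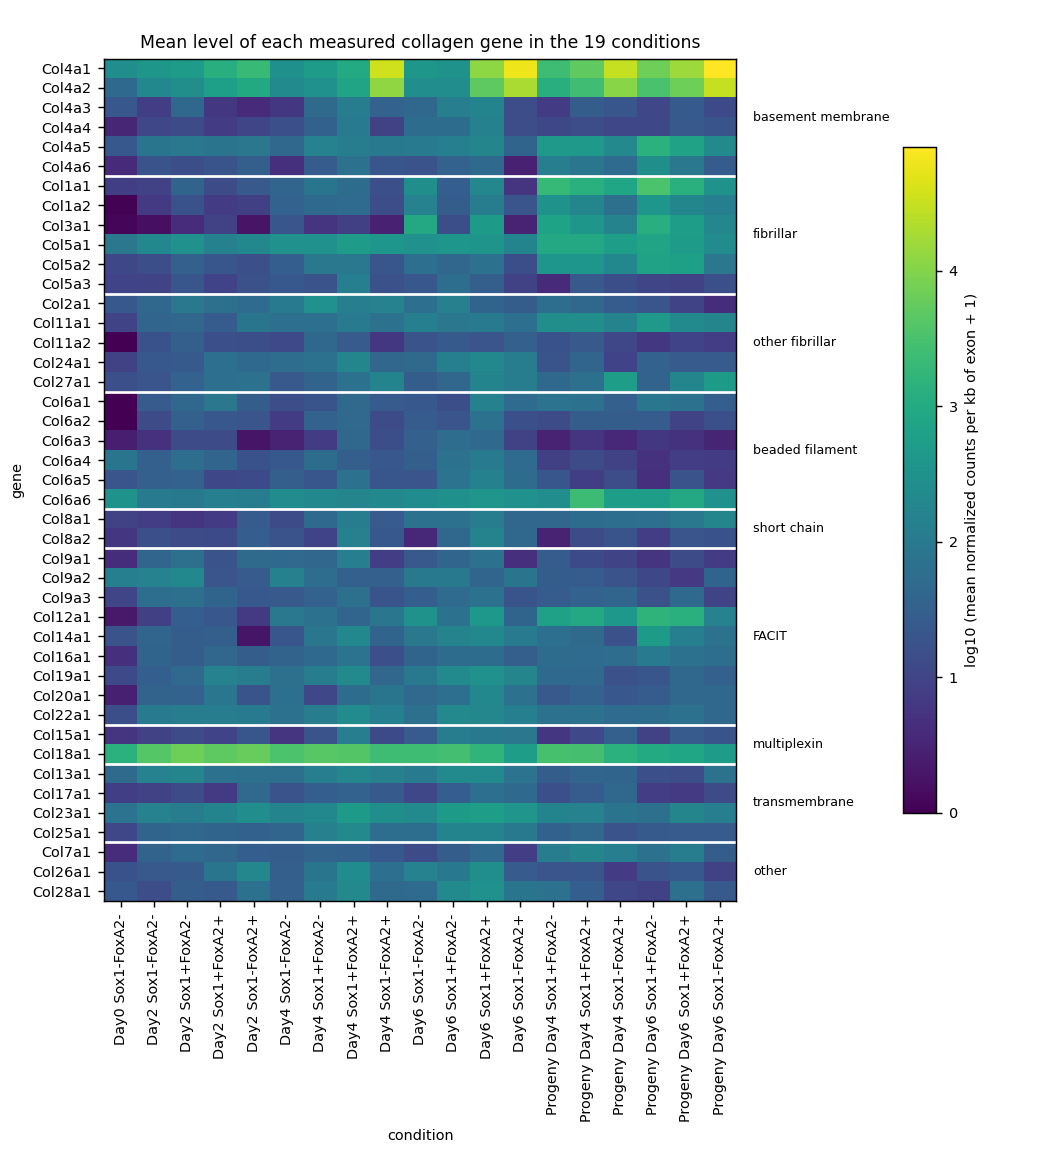
Mean level (log10 of normalized counts per kb of exon plus 1, colour) of each of the 43 measured collagen genes (lines, grouped by class) in the 19 conditions (columns), 3 libraries each. Col4a1 and Col4a2 are brightest in the Sox1-FoxA2+ columns of day 4, day 6 and their progeny, and Col18a1 is bright across the sorted columns.

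Over all 24 comparisons, some of which share libraries, 18 members passed the test at least once, in 42 calls (adjusted p under 0.05, the quasi-likelihood test of edgeR, adjusted after Benjamini and Hochberg over all genes tested, the source of every adjusted p below). Of these calls, 15 held without any single library of their groups and 27 did not, and each of the latter is given with its values. Col4a2 was called in 11 comparisons and Col4a1 in 8, against at most 4 for any other member. Counts of members called by DESeq2 or another fit are given below without the share of all genes called in that fit. Such a count shows only that the number of calls depends on the fit, and cannot be read as a result about the members.

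In sorted cells the level of Col4a1, the chain that with Col4a2 makes the common basement membrane network, was 417, 127 and 219 in the 3 libraries of day 0. In Sox1-FoxA2+ cells it was 1561, 2338 and 2280.5 at day 2, 51709.7, 19538 and 35128 at day 4 and 104244, 36837 and 42241 at day 6. Levels of Sox1+FoxA2- cells were 1071, 382 and 134 at day 2, 1170.4, 72.3 and 328 at day 4 and 453, 93.9 and 447 at day 6. The libraries of the populations did not overlap on any of the 3 days, and at day 4 and day 6 the lowest Sox1-FoxA2+ library stood above the highest Sox1+FoxA2- library by more than an order of magnitude. Sox1-FoxA2- cells stayed at 76.4 to 604 from day 2 to day 6. Col4a2 levels were 34.2, 53.2 and 50.5 at day 0. In Sox1-FoxA2+ cells they were 834, 696 and 1304 at day 2, 17042, 6505 and 13148 at day 4 and 33469.7, 13705 and 12338 at day 6, and in Sox1+FoxA2- cells 418, 221 and 152, 609.7, 97 and 189.8 and 246, 127 and 385. As for Col4a1, the libraries of both populations stood apart on each day.

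**Figure D2:**
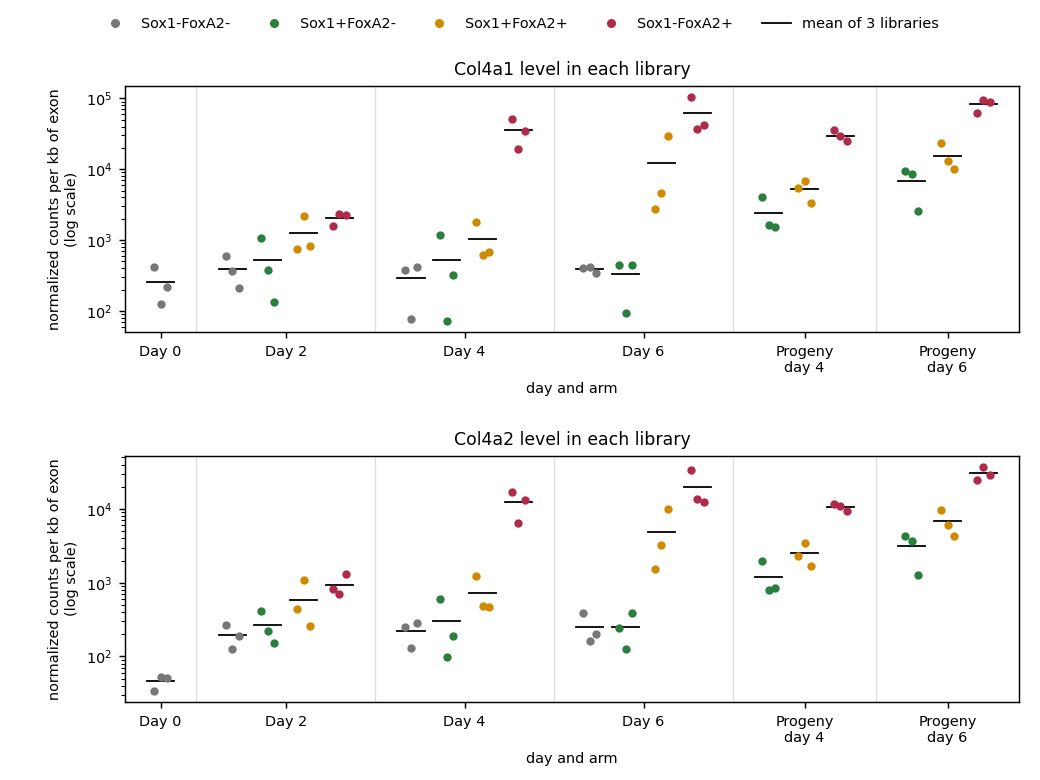
Level of Col4a1 (top) and Col4a2 (bottom) in each of the 57 libraries (points; log axis, normalized counts per kb of exon) by day and arm, coloured by sorted population, with a line at the mean of 3 libraries. Sox1-FoxA2+ libraries lie above all Sox1+FoxA2- libraries of the same day in both panels, and day 6 Sox1+FoxA2+ libraries spread from 2780.01 to 29169.5 for Col4a1.

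Over time in Sox1-FoxA2+ cells, 2 members rose and 1 fell between day 2 and day 6 (2.23% of 19407 genes tested were called in this comparison, 1.51% higher and 0.711% lower). Col4a1 rose by 4.80 ± 0.48 (log2 fold change ± SE, adjusted p = 9.21e-05) and Col4a2 by 4.32 ± 0.48 (adjusted p = 1.96e-04). Col18a1 fell by 3.45 ± 0.36 on the log2 scale (adjusted p = 2.34e-05). All 3 calls held without any single library. In Sox1+FoxA2- cells 0 members were called between day 2 and day 6, where 0 of 22328 genes were (0%). Of the 43 members, 10 had an unadjusted p under 0.05, against 11.4% of all genes. DESeq2 called 7, with no share of all genes to set beside it. There the log2 fold change of Col4a1 was -0.93 ± 1.02 (adjusted p = 0.803), and whether the change differed between the populations was not tested.

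Between Sox1-FoxA2+ and Sox1+FoxA2- cells, 0 members passed the test at day 2 (0.00491% of genes called). There 5 of 43 had an unadjusted p under 0.05, against 5.06% of all genes, and DESeq2 called 3. Log2 fold changes were 1.99 ± 0.72 for Col4a1 and 1.86 ± 0.48 for Col4a2 (adjusted p = 0.915 and 0.915). At day 4, 1 member was called (0.266% of genes). Col4a2 was higher in Sox1-FoxA2+ cells by 5.33 ± 0.84 (adjusted p = 0.0286), and Col4a1 stood at 6.05 ± 1.27 (adjusted p = 0.183); with the replicate number as a block, 2 members were called. The adjusted p of Col4a2 was 0.0855 to 0.244 without any single library but Sox1+FoxA2- replicate 1. At day 6, 3 members were called (1.32% of genes), of which Col18a1 is described further on. Col4a1 was higher by 7.77 ± 1.24 (adjusted p = 0.0192) and Col4a2 by 6.54 ± 0.91 (adjusted p = 0.00408). Without single libraries, the adjusted p of Col4a1 was 0.107, 0.0893 and 0.129 without Sox1+FoxA2- replicates 1, 2 or 3 in turn and 0.0537 without Sox1-FoxA2+ replicate 1. That of Col4a2 was 0.0625 and 0.0617 without Sox1+FoxA2- replicates 1 or 3 in turn. Against Sox1-FoxA2- cells of day 6, 2 members were higher in Sox1-FoxA2+ cells (1% of genes called, 0.653% higher), Col4a1 by 7.33 ± 1.22 (adjusted p = 0.0301) and Col4a2 by 6.34 ± 0.90 (adjusted p = 0.00633). Here the adjusted p of Col4a1 was 0.0656 to 0.192 without any single library but Sox1-FoxA2+ replicate 3, and 0.0599 with the replicate block, a fit that called 4 members. That of Col4a2 was 0.0688, 0.0822 and 0.096 without Sox1-FoxA2- replicates 1, 2 or 3 in turn. Parietal endoderm markers moved with these levels: their summed normalized count, not divided by length, was 883555 to 1721720 in day 6 Sox1-FoxA2+, 87877 to 617257 in Sox1+FoxA2+ and 12944 to 22309 in Sox1+FoxA2- libraries. That list includes the basement membrane genes Sparc, Lama1, Lamb1 and Lamc1. Visceral endoderm markers moved the same way, at 66971 to 111568 in day 6 Sox1-FoxA2+ and 2279 to 3964 in Sox1+FoxA2- libraries. The part of either list in the result was not tested.

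Progeny of Sox1-FoxA2+ cells had higher levels of both chains than progeny of Sox1+FoxA2- cells. Col4a1 was at 35200.5, 28989 and 25034 in day 4 progeny of Sox1-FoxA2+ cells and at 62972, 94162 and 88173 in day 6 progeny. Progeny of Sox1+FoxA2- cells had 4023, 1658 and 1528 at day 4 and 9396, 8506 and 2593 at day 6. Groups did not overlap on either day, and the progeny of Sox1+FoxA2- cells lay above every sorted Sox1+FoxA2- library of day 4 and day 6. Col4a2 was at 11737, 11119.5 and 9429.9 (day 4) and 24755, 37358 and 29283 (day 6) in progeny of Sox1-FoxA2+ cells, and at 1982, 800.3 and 856 and 4345, 3712 and 1280.2 in progeny of Sox1+FoxA2- cells. In day 4 progeny, 3 members differed (1.97% of genes called): Col4a1 was higher in progeny of Sox1-FoxA2+ cells by 3.69 ± 0.36 (adjusted p = 1.24e-05), Col4a2 by 3.22 ± 0.34 (adjusted p = 1.98e-05), and the fibrillar chain Col1a2 was lower. In day 6 progeny, 8 members differed (6.91% of genes called), 3 higher and 5 lower (3.59% and 3.32% of genes), with Col4a1 at 3.53 ± 0.48 (adjusted p = 7.17e-04) and Col4a2 at 3.24 ± 0.45 (adjusted p = 7.9e-04). These 4 type IV calls held without any single library. In a single fit of all 57 libraries, which shares 1 estimate of the spread between sorted and progeny libraries, Col4a1 in day 4 progeny had an adjusted p of 0.0719, and 3 members were called in day 6 progeny.

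Sox1+FoxA2+ cells, which carry both reporters, had mean Col4a1 levels between those of Sox1+FoxA2- and Sox1-FoxA2+ cells on every day and arm. Sorted Sox1+FoxA2+ libraries had Col4a1 at 739.9, 2178 and 837 at day 2, 1776, 622 and 687 at day 4 and 2780.01, 4673 and 29169.5 at day 6. Their progeny had 5383, 6860.5 and 3326 at day 4 and 23210.1, 13268 and 10196 at day 6. Among day 6 progeny the order Sox1+FoxA2-, Sox1+FoxA2+, Sox1-FoxA2+ held with no overlap between libraries. At day 2, however, the Sox1+FoxA2+ libraries overlapped those of both other populations. Sox1+FoxA2+ and Sox1+FoxA2- libraries also overlapped in sorted day 4 cells and in day 4 progeny. Against Sox1-FoxA2+ cells, day 4 Sox1+FoxA2+ cells had lower Col4a2, with a log2 fold change of -4.28 ± 0.80 (adjusted p = 0.0449), the 1 member called (0.475% of genes). Its adjusted p was 0.127 to 0.304 without any single library but Sox1+FoxA2+ replicate 1, and 0.0533 with RLE size factors. Without replicate 1 of the Sox1+FoxA2+ cells, whose Foxa2 was low, the log2 fold change of Col4a2 was -5.11 (adjusted p = 0.0389), and over Sox1+FoxA2- cells that of Col4a1 was -0.14 (adjusted p = 0.995), against 0.74 with it.

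In progeny, Sox1+FoxA2+ cells had lower type IV levels than Sox1-FoxA2+ cells on both days. At day 4, 3 members were called (0.792% of genes; 5 with the replicate block), with Col4a1 at -2.61 ± 0.34 (adjusted p = 4.2e-04), Col4a2 at -2.19 ± 0.33 (adjusted p = 0.00119) and Col1a2 at 1.40 ± 0.32 (adjusted p = 0.0466). The adjusted p of Col1a2 was 0.0587 to 0.219 when any 1 of the 6 libraries was left out, while both type IV calls held without any single library. At day 6, 4 members were called (4.63% of genes), among them Col4a1 at -2.41 ± 0.45 (adjusted p = 0.0109) and Col4a2 at -2.19 ± 0.43 (adjusted p = 0.0125). For Col4a1 the adjusted p was 0.0778 and 0.0567 without Sox1+FoxA2+ replicates 2 or 3 in turn and 0.0598 without Sox1-FoxA2+ replicate 3. For Col4a2 it was 0.0877 and 0.0543 without Sox1+FoxA2+ replicates 2 or 3 in turn and 0.0567 without Sox1-FoxA2+ replicate 3. A single fit of all 57 libraries called 0 members in day 4 progeny, with adjusted p of 0.707, 0.498 and 1 for Col4a1, Col4a2 and Col1a2, and 0 in day 6 progeny, with 0.368 and 0.177 for Col4a1 and Col4a2.

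Against Sox1+FoxA2- cells, 0 members were called in Sox1+FoxA2+ cells on either day or arm. Of all genes, 0% were called at day 4, 0.0496% at day 6, 0.00483% in day 4 progeny and 0.18% in day 6 progeny. In the same order, 0, 4, 4 and 8 of 43 members had an unadjusted p under 0.05, against 6.82%, 4.43%, 4.72% and 9.38% of all genes. DESeq2 called 0, 3, 0 and 3 members. With the replicate block, 1 member was called in day 6 progeny. At day 6 the log2 fold change of Col4a1 over Sox1+FoxA2- cells was 5.11 ± 1.10 (adjusted p = 0.466) and that of Col4a2 4.22 ± 0.81 (adjusted p = 0.201). Without the library that had 0 Foxa2 counts, they were 5.62 (adjusted p = 0.17) and 4.68 (adjusted p = 0.0886), and again 0 members were called. Without replicate 3, the other day 6 library with low Foxa2, they were 3.46 (adjusted p = 0.413) and 3.21 (adjusted p = 0.268), also with 0 members called. Against day 6 Sox1-FoxA2+ cells, 0 members were called with all libraries (0.0909% of genes called) and 0 without either of these. With all libraries, 8 of 43 members had an unadjusted p under 0.05, against 14.2% of all genes. Col4a1 was at -2.66 ± 0.98 (adjusted p = 0.351) with all libraries, -1.99 (adjusted p = 0.557) without replicate 1 and -4.28 (adjusted p = 0.095) without replicate 3. In the same comparison DESeq2 called 6 members, the replicate block 1, the fit of all 57 libraries 1, and the test without Sox1+FoxA2+ replicate 2, the library with the most Foxa2, 2. Against day 6 Sox1+FoxA2- cells the fit of all 57 libraries called 2. The library with 0 Foxa2 counts had the lowest Col4a1 and Col4a2 levels of the 3, and replicate 3, with the highest, reached 29169.5 and 10059.

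Col4a1 and Col4a2 levels moved together over the libraries, with a Pearson r of log2 levels of 0.976 over 57 libraries, 0.961 over the 39 sorted and 0.998 over the 18 progeny libraries. These points share their normalization and fall into the conditions above, so the values are a description. The ratio of the Col4a1 to the Col4a2 level, each per kb, averaged 3.08 (2.69 to 3.42) in day 6 Sox1-FoxA2+ cells and 2.16 (2.03 to 2.29) in day 6 progeny of Sox1+FoxA2- cells. At day 0 it ran from 2.39 to 12.2, where Col4a2 was at its lowest. Of the exon bases of Col4a1 and Col4a2, 23.7% and 16.6% lay within other genes and were left out of the length.

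The other 4 type IV chains were low in Sox1-FoxA2+ cells, and only Col4a5 among them was called in any comparison run. Col4a5, a chain of more restricted basement membranes, was at 1883, 1687 and 559 in day 6 progeny of Sox1+FoxA2- cells, 438, 809 and 745 in those of Sox1+FoxA2+ cells and 302, 189 and 188 in those of Sox1-FoxA2+ cells. Libraries of the first and last group did not overlap, and Col4a5 was lower in progeny of Sox1-FoxA2+ than of Sox1+FoxA2- cells (log2 fold change -2.65 ± 0.44, adjusted p = 0.00343), the opposite direction to Col4a1 and Col4a2, and this call held without any single library but not in the fit of all 57 libraries (adjusted p = 0.546). Col4a6, whose gene starts next to that of Col4a5, was at 381, 315 and 134 and 1.73, 44.3 and 32.7 in the same groups, without overlap, at -3.46 ± 0.91 (adjusted p = 0.0599). Col4a3 and Col4a4 stayed low, with highest condition means of 162 and 142 in day 6 Sox1+FoxA2+ cells. There Col4a3 ranged from 63.9 to 225 and Col4a4 from 23.4 to 308 between libraries. Both were highest in replicate 1, which had 0 Foxa2 counts, and lowest in replicate 2, with the most Foxa2. Of the Col4a3 exon bases 50% lie within another gene, which limits its measurement.

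The fibrillar chains had another pattern. Col1a1, a chain of type I collagen, was at 3.72, 0 and 9.59 in sorted day 6 Sox1-FoxA2+ cells and at 39.8, 18 and 27.3 in Sox1+FoxA2- cells, and at 321, 80.4 and 435 in Sox1-FoxA2- cells. In progeny of Sox1+FoxA2- cells it was at 3119, 1809.8 and 1051 at day 4 and 2995, 5458 and 1683 at day 6, and in progeny of Sox1-FoxA2+ cells at 310.3, 358 and 1761 and 34.1, 563 and 390.3. At day 6 the progeny groups did not overlap, while at day 4 replicate 3 of Sox1-FoxA2+ progeny lay within the range of Sox1+FoxA2- progeny. The log2 fold change in day 6 progeny was -3.42 ± 0.94 (adjusted p = 0.0816), so Col1a1 did not pass the test. Col3a1, the chain of type III collagen, was at 949, 2005 and 633 in day 6 progeny of Sox1+FoxA2- cells and 24.9, 244 and 292 in those of Sox1-FoxA2+ cells, without overlap (log2 fold change -2.75 ± 0.86, adjusted p = 0.124). In sorted day 6 cells it was at 1028, 325 and 1472 in Sox1-FoxA2-, 617, 83.7 and 719.7 in Sox1+FoxA2+, 24.9, 9.45 and 7.65 in Sox1+FoxA2- and 5.26, 0 and 0.592 in Sox1-FoxA2+ libraries. Sox1-FoxA2- and Sox1+FoxA2+ libraries of day 6 were thus all above the other populations. Of the Sox1+FoxA2+ libraries, those at 617 and 719.7 were replicates 1 and 3, whose Foxa2 was low, and replicate 2, with the most Foxa2, had 83.7. Against Sox1-FoxA2- cells, Col3a1 in Sox1-FoxA2+ cells had a log2 fold change of -8.78 (adjusted p = 0.055), a fitted value that rests on near-zero counts.

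Among the other fibrillar chains, Col1a2, the second chain of type I, was lower in day 4 progeny of Sox1-FoxA2+ than of Sox1+FoxA2- cells (levels 48, 70.5 and 73.9 against 546, 225 and 239, no overlap, log2 fold change -2.31 ± 0.33, adjusted p = 4.18e-04), a call that held without any single library but had an adjusted p of 1 in the fit of all 57 libraries. In day 6 progeny its log2 fold change was -1.63 ± 0.52 (adjusted p = 0.106), with levels of 203, 101 and 80.3 against 411, 580.4 and 162, which overlapped. The type V chains Col5a1 and Col5a2, which are built into type I fibres, were lower in day 6 progeny of Sox1-FoxA2+ cells. Col5a1 was at 188, 253 and 263 there and at 617, 1222 and 417 in progeny of Sox1+FoxA2- cells, with no overlap (log2 fold change -1.74 ± 0.43, adjusted p = 0.0309). Its adjusted p was 0.0704 to 0.125 without any single library but Sox1+FoxA2- replicate 3, 0.0609 with the replicate block and 0.453 in the fit of all 57 libraries. Col5a2 was at 33.4, 79.2 and 154 and 974, 758 and 263, again with no overlap (log2 fold change -2.97 ± 0.71, adjusted p = 0.0417). Its adjusted p was 0.058 to 0.213 without any single library but Sox1+FoxA2- replicate 3, 0.0937 with the block and 0.634 in the fit of all 57. Col5a3, the third type V chain, was called in no comparison, with a highest condition mean of 133 in day 4 Sox1+FoxA2+ cells. Unlike Col1a1 and Col3a1, Col5a1 was measured in every library, from 47.8 to 1967. In the same day 6 progeny, 10 fibroblast or mesenchyme markers summed to 3907 to 5262 normalized counts in Sox1+FoxA2-, 2342 to 3389 in Sox1+FoxA2+ and 966 to 1074 in Sox1-FoxA2+ libraries. Of 9 tested, 2 were lower in Sox1-FoxA2+ than in Sox1+FoxA2- progeny, where 3.32% of all genes were called lower. The part of these markers in the fibrillar levels was not tested.

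**Figure D3:**
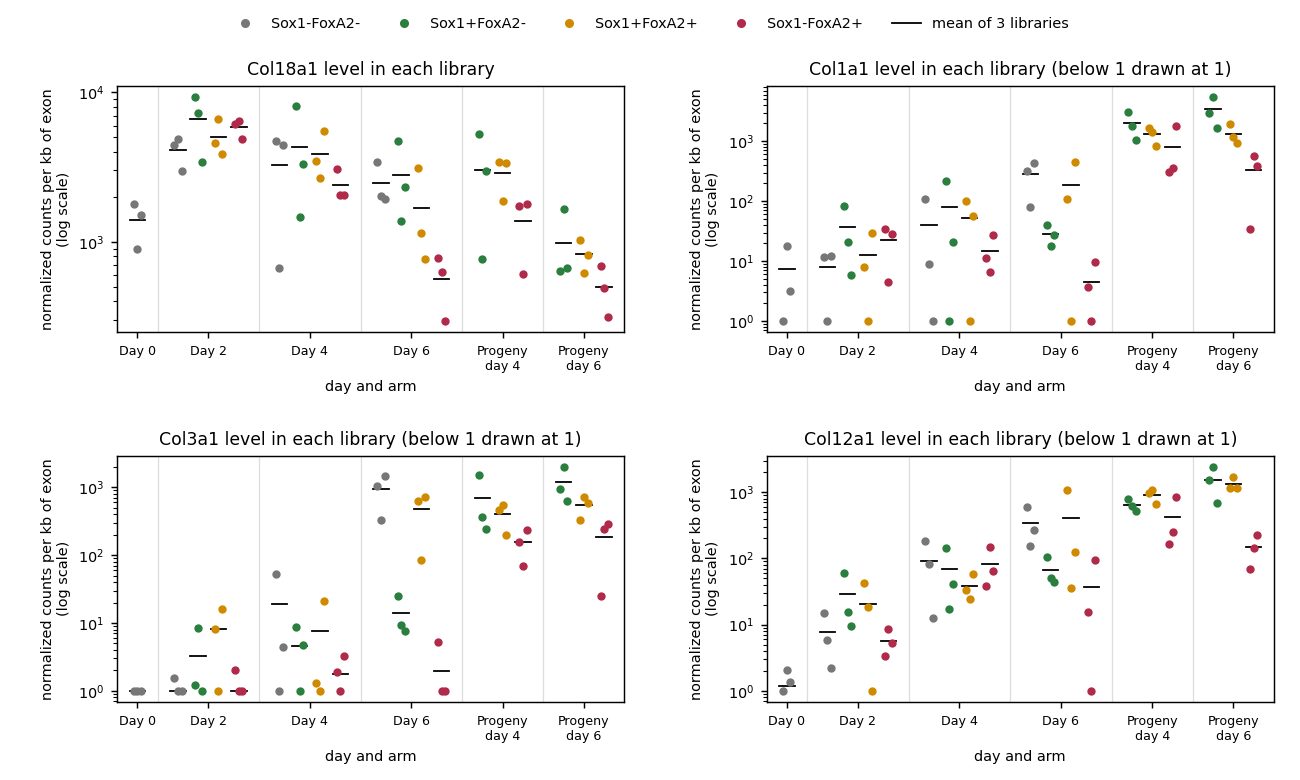
Level of Col1a1, Col3a1, Col18a1 and Col12a1 in each of the 57 libraries (points; log axis, normalized counts per kb of exon, values below 1 drawn at 1 except for Col18a1) by day and arm, coloured by sorted population, with a line at the mean of 3 libraries. In day 6 progeny, Col12a1 ranged from 70.3 to 227 in the Sox1-FoxA2+ libraries and from 675 to 2425 in the Sox1+FoxA2- libraries.

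Setting basement membrane against fibrillar chains within a library removes the scaling between libraries. The balance is the log2 ratio of the summed level of Col4a1 to Col4a6 over that of Col1a1, Col1a2, Col3a1, Col5a1, Col5a2 and Col5a3, each sum plus 1, and it was described without a test. In day 6 Sox1-FoxA2+ libraries it was 9.67, 9.23 and 7.19, and in day 6 Sox1+FoxA2- libraries 0.88, 0.06 and 0.99. Sox1-FoxA2- libraries of day 6 had -1.04, 0.23 and -1.55, so in 2 of 3 fibrillar chains had the larger sum per kb of exon. Day 6 progeny of Sox1-FoxA2+ cells had 7.49, 6.70 and 6.63 and those of Sox1+FoxA2- cells 1.43, 0.50 and 0.54. Counts take in introns, so the balance depends on the length they are divided by. Per kb of gene span, Col1a1 had the highest mean of all members in day 4 and day 6 progeny of Sox1+FoxA2- cells (777.8 and 1318.3). Which sum was larger thus cannot be read from the sign of the balance in those progeny, nor in sorted cells with a balance near 0. The mean difference between Sox1-FoxA2+ and Sox1+FoxA2- cells was 2.55 at day 2, 5.76 at day 4, 8.05 at day 6, 4.71 in day 4 progeny and 6.11 in day 6 progeny, and the libraries did not overlap in any of these 5 comparisons. Sox1+FoxA2+ cells had a mean balance of 3.27 ± 1.51 (SD, n = 3) at day 2, where their libraries (2.86, 4.95 and 2.02) overlapped those of Sox1-FoxA2+ cells (3.09, 3.43 and 4.29). Their mean was 1.36 ± 0.75 (SD, n = 3) at day 4, 3.87 ± 1.99 at day 6, 1.37 ± 0.30 in day 4 progeny and 2.83 ± 0.14 in day 6 progeny. At day 4 replicate 1, whose Foxa2 was low, had 2.20. Replicates 2 and 3 had 1.12 and 0.75, within the range of day 4 Sox1+FoxA2- libraries (0.56 to 1.16). Sox1+FoxA2+ libraries of day 6 progeny (2.98, 2.80 and 2.70) lay apart from both other groups. In sorted day 6 cells the library with 0 Foxa2 counts had 1.68, against 5.57 in replicate 2 and 4.37 in replicate 3, whose Foxa2 was also low.

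**Figure D4:**
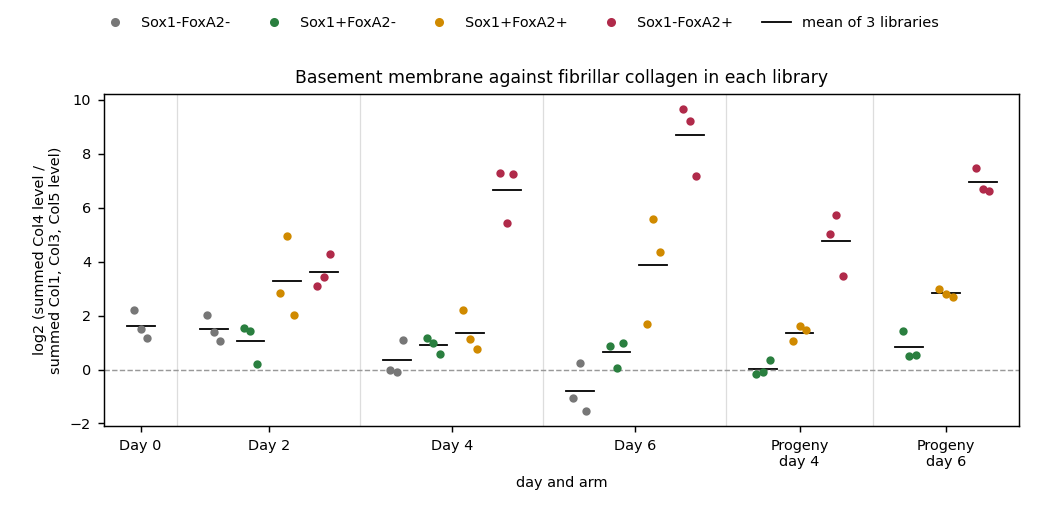
Log2 ratio of the summed level of the 6 Col4 chains to that of the 6 Col1, Col3 and Col5 chains in each of the 57 libraries (points) by day and arm, coloured by sorted population, with a line at the mean of 3 libraries and 0 marking equal sums per kb of exon. Sox1-FoxA2+ means go from 3.60 at day 2 to 8.70 at day 6, while Sox1+FoxA2- means stay between 0.03 and 1.05.

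Col18a1, whose protein carries heparan sulfate chains and sits in basement membranes, went the other way from Col4a1 in Sox1-FoxA2+ cells. Its level was 6128, 6427 and 4907 at day 2, 3059, 2055 and 2049 at day 4 and 778, 627 and 295 at day 6, against 4721, 1373 and 2342 in day 6 Sox1+FoxA2- cells. The day 6 libraries of both populations did not overlap, and those of day 2 and day 6 in Sox1-FoxA2+ cells did not either. The fall over time in Sox1-FoxA2+ cells held in each fit named above, whereas the difference at day 6 (-2.08 ± 0.51, adjusted p = 0.041) had an adjusted p of 0.223 and 0.0837 without Sox1+FoxA2- replicates 1 or 3 in turn and 0.119 and 0.08 without Sox1-FoxA2+ replicates 2 or 3 in turn. It was also above the threshold with RLE size factors (0.0669), without robust estimation (0.053) and in the fit of all 57 libraries (0.11). Against day 6 Sox1-FoxA2- cells the log2 fold change was -2.07 ± 0.51 (adjusted p = 0.0505). Progeny of day 6 had Col18a1 at 684, 488 and 316 (Sox1-FoxA2+), 1034, 617 and 817 (Sox1+FoxA2+) and 633, 1662 and 671 (Sox1+FoxA2-), groups that overlapped. Of its exon bases, 33.5% lie within other genes.

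Further members were called in day 6 progeny of Sox1-FoxA2+ against Sox1+FoxA2- cells. Col27a1, a fibrillar chain with short fibrils known from cartilage, was higher, at 802, 289 and 357 against 54, 25.5 and 27.9, with no overlap (log2 fold change 3.72 ± 0.52, adjusted p = 0.00126), and this call held without any single library. In sorted cells its log2 fold change between the same populations was 2.22 at day 4 and 1.82 at day 6, and in day 4 progeny 3.71, none of which passed the test (adjusted p = 0.327, 0.352 and 0.263). Col12a1, a FACIT collagen bound to type I fibres, was lower, at 70.3, 143 and 227 against 1540.1, 2425 and 675, with no overlap (log2 fold change -3.47 ± 0.52, adjusted p = 0.00234, held without any single library; 0.449 in the fit of all 57 libraries). Progeny of Sox1+FoxA2+ cells had Col12a1 at 1167, 1688 and 1161, within the range of Sox1+FoxA2- progeny and above Sox1-FoxA2+ progeny (log2 fold change 3.19 ± 0.51, adjusted p = 0.00652; 0.0502 without Sox1+FoxA2+ replicate 3; 0.758 in the fit of all 57). Col14a1, another FACIT, was at 35.9, 117 and 51.4 against 698, 502 and 197, with no overlap (log2 fold change -2.82 ± 0.58, adjusted p = 0.0126). Its adjusted p was 0.0527 and 0.0649 without Sox1+FoxA2- replicates 1 or 2 in turn and 0.0504 and 0.091 without Sox1-FoxA2+ replicates 1 or 3 in turn, and 0.219 in the fit of all 57. Col7a1, the chain of the anchoring fibrils below epithelia, was at 229, 47.8 and 62 in day 6 progeny of Sox1+FoxA2+ cells and 25.1, 28.4 and 26.4 in those of Sox1-FoxA2+ cells, with no overlap (log2 fold change 2.06 ± 0.52, adjusted p = 0.0361); its adjusted p was 0.202 without Sox1+FoxA2+ replicate 1 and 0.0943, 0.115 and 0.129 without Sox1-FoxA2+ replicates 1, 2 or 3 in turn, and 0.916 in the fit of all 57.

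**Figure D5:**
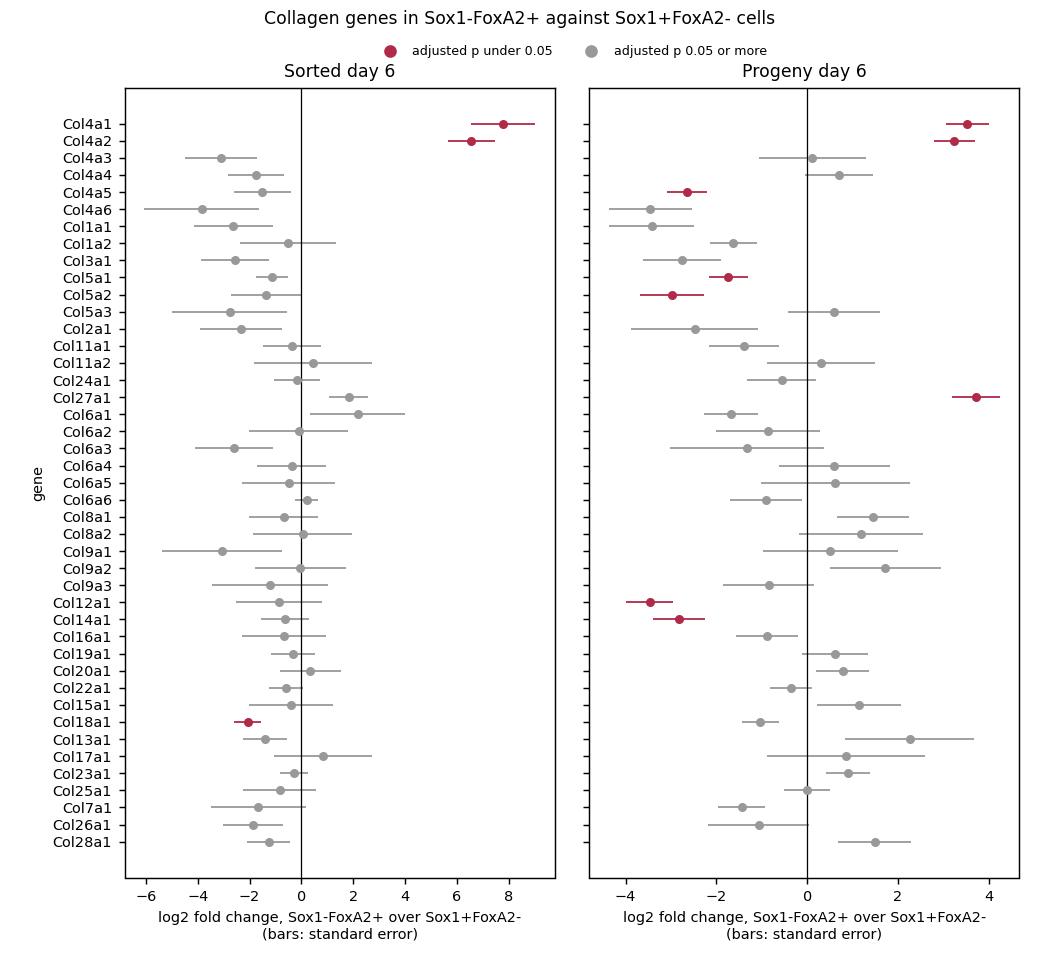
Log2 fold change of each tested member in Sox1-FoxA2+ over Sox1+FoxA2- cells (points, with the standard error as bars) in sorted day 6 cells (left) and day 6 progeny (right); coloured points passed the test. Col4a1 and Col4a2 lie farthest right in the sorted panel at 7.77 and 6.54, and Col4a1, Col4a2 and Col27a1 are the 3 members called higher in the progeny panel.

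Over all tested members, the median log2 fold change of Sox1-FoxA2+ over Sox1+FoxA2- cells was -0.60 against -0.10 over all genes tested at day 4, -0.67 against -0.30 at day 6, -0.59 against -0.02 in day 4 progeny and -0.35 against -0.04 in day 6 progeny. Class counts in day 6 progeny were 2 higher and 1 lower of 6 tested type IV chains, 0 and 2 of 6 type I, III and V chains, 1 and 0 of 5 other fibrillar chains, and 0 and 2 of 9 FACIT chains. Of the type I, III and V chains, 5 had a negative log2 fold change there, where 48.2% of all genes had a positive one. The shares of all genes called in this comparison were 3.59% higher and 3.32% lower.

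Cells negative for both reporters were followed from day 0. Between day 0 and day 6, 5 members rose in Sox1-FoxA2- cells and 0 fell (4.62% of 21278 genes were called, 2.41% higher), and the median log2 fold change of the members was 2.41 against 0.30 over all genes. Col4a2 rose by 2.43 ± 0.50 (adjusted p = 0.00915), to 394, 164 and 202 from the day 0 levels given above; its adjusted p was 0.0776 without day 6 Sox1-FoxA2- replicate 1. Col11a1, a fibrillar chain of cartilage and early mesenchyme, rose by 3.79 ± 0.74 (adjusted p = 0.00657, held without any single library), from 5.47, 11.1 and 10.7 to 162, 45.3 and 178. Col12a1 was at 0.163, 2.08 and 1.36 at day 0 and 597, 153 and 268 at day 6 (adjusted p = 0.0113; 0.0695 without day 0 Sox1-FoxA2- replicate 3). Col3a1 and Col1a2 had 6 and 4 counts in all at day 0 and 33591 and 6554 at day 6, in 3 libraries each. Both were called higher (adjusted p = 0.0221 and 0.0259), and their fitted fold changes depend on the prior count and are not given as sizes. For Col3a1 the adjusted p was 0.0699 to 0.101 without any single library but day 6 Sox1-FoxA2- replicate 2. For Col1a2 it was 0.137, 0.121 and 0.13 without day 0 Sox1-FoxA2- replicates 1, 2 or 3 in turn and 0.0576 without day 6 Sox1-FoxA2- replicate 1. The level of Col1a2 was 123, 44.9 and 272 at day 6 and Col3a1 had 1028, 325 and 1472. All libraries of day 6 stood above those of day 0 for each of the 5 members, which were picked by the test on these same libraries. Fibroblast or mesenchyme markers summed to 174 to 585 normalized counts at day 0, where Lum, Postn and Tbx18 were at 0, and 3891 to 4788 at day 6, and their part in these changes was not tested.

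Progeny and sorted cells of the same day and starting population differ in replating, medium and sort. At day 6, 7 members differed between progeny and sorted Sox1+FoxA2- cells (3.4% of genes called), 4 higher and 3 lower in progeny (2.06% and 1.34% of genes). Col4a1 was higher by 4.61 ± 1.00 (adjusted p = 0.0231; 0.0662 to 0.0959 without any single library but progeny Sox1+FoxA2- replicate 3) and Col4a2 by 3.86 ± 0.77 (adjusted p = 0.013; 0.0706 and 0.0756 without sorted Sox1+FoxA2- replicates 1 or 2 in turn). Col1a1 was higher by 7.13 ± 1.79 (adjusted p = 0.0496; 0.0752 to 0.217 when any 1 of the 6 libraries was left out) and Col3a1 by 6.65 ± 1.41 (adjusted p = 0.0208; 0.0544 to 0.123 without any single library but progeny Sox1+FoxA2- replicate 3), with the levels given above. With RLE size factors the adjusted p of Col1a1 was 0.0566, and with the replicate block 0.0803. The members lower in progeny were Col28a1, a collagen known from nerve, at 7.5, 10.8 and 5.02 in progeny against 141, 125 and 374 in sorted cells (log2 fold change -4.52 ± 0.90, adjusted p = 0.00303, held without any single library), Col23a1 and Col19a1. Col23a1, a transmembrane collagen, was at 87.8, 53.4 and 51.5 against 464, 526 and 409 (log2 fold change -2.65 ± 0.59, adjusted p = 0.00871; 0.0613 without progeny Sox1+FoxA2- replicate 2). Col19a1, a FACIT, was at 17.8, 11 and 30.4 against 236, 138 and 294 (log2 fold change -3.32 ± 0.86, adjusted p = 0.0258; 0.0593 and 0.0927 without sorted Sox1+FoxA2- replicates 1 or 3 in turn and 0.139 and 0.158 without progeny Sox1+FoxA2- replicates 1 or 2 in turn). In the fit of all 57 libraries the adjusted p was 0.125 for Col28a1, 0.0796 for Col23a1 and 0.165 for Col19a1, so the 3 lower calls were lost there. The progeny and sorted libraries did not overlap for any of the 7, which were picked by the test on these same libraries, so this is no separate support. Col28a1, Col23a1 and Col19a1 span 195, 294 and 326 kb, introns included, and reads of spliced and unspliced RNA cannot be told apart in their counts. Smooth muscle markers (Acta2, Tagln, Cnn1 and Myh11) summed to 49716 to 65195 normalized counts in the progeny and 352 to 3078 in the sorted cells, and their part in these differences was not tested.

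In the other progeny comparisons fewer members were called. At day 4, Sox1+FoxA2+ progeny had 2 members that differed from sorted cells (1.32% of genes called). Col12a1 was at 973, 1072 and 670.1 in progeny and 32.9, 24.3 and 57.3 in sorted cells (log2 fold change 4.73 ± 0.86, adjusted p = 0.0134; 0.0941 and 0.0508 without sorted Sox1+FoxA2+ replicates 2 or 3 in turn and 0.0606 without progeny Sox1+FoxA2+ replicate 2). Col26a1, a small collagen-like protein gene, was at 10.2, 21 and 28.4 and 194, 366 and 186 (log2 fold change -3.46 ± 0.86, adjusted p = 0.0362; 0.0879 without sorted Sox1+FoxA2+ replicate 2 and 0.18, 0.196 and 0.0923 without progeny Sox1+FoxA2+ replicates 1, 2 or 3 in turn). In the fit of all 57 libraries their adjusted p was 0.0826 and 0.176, and without sorted Sox1+FoxA2+ replicate 1, whose Foxa2 was low, 0.0402 and 0.0443. Also at day 4, 0 members were called in Sox1-FoxA2+ cells (0.173% of genes) and 0 in Sox1+FoxA2- cells (0.583%). There 11 and 12 of 43 members had an unadjusted p under 0.05, against 6.16% and 9.64% of all genes, and DESeq2 called 4 in each. At day 6, 0 members were called in Sox1-FoxA2+ cells (0.121% of genes) and 0 in Sox1+FoxA2+ cells (2.37%). There 10 and 11 members had an unadjusted p under 0.05, against 10.9% and 16.9% of all genes, and DESeq2 called 4 and 6. In Sox1+FoxA2+ cells 0 were also called without either day 6 library with low Foxa2, though 4 were called without replicate 2 of the sorted cells. Col4a1 in Sox1-FoxA2+ cells had a log2 fold change of progeny over sorted cells of 0.51 ± 0.86 (adjusted p = 0.875) at day 6. The difference of the day 6 changes between Sox1-FoxA2+ and Sox1+FoxA2- cells was tested as an interaction, in which 0 members were called (0.0196% of genes). There 5 of 43 members had an unadjusted p under 0.05, against 11.2% of all genes, and DESeq2 called 2. Col4a1 was at -4.11 ± 1.26 (adjusted p = 0.36) and Col4a2 at -3.16 ± 0.99 (adjusted p = 0.36). A change called in one population and not in the other is thus not shown to differ between them.

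Of the members named for their level alone, Col6a6, a type VI chain, reached 3962, 697 and 2272 in day 4 progeny of Sox1+FoxA2+ cells against 57.6, 263 and 199 in sorted ones and 564, 137 and 76.1 in progeny of Sox1+FoxA2- cells. It was not called in any comparison (adjusted p = 0.0593 against sorted cells), and replicate 2 of the Sox1+FoxA2+ progeny was the lowest of its 3 libraries. Col6a1, a main type VI chain of connective tissue, had its highest condition mean in day 6 Sox1+FoxA2+ cells, at 57.6, 21.5 and 359, and 0 counts in all day 0 libraries. The 359 came from replicate 3, whose Foxa2 was low. Col2a1, the fibrillar chain of cartilage, was highest in day 4 Sox1+FoxA2- cells, at 552, 173 and 186. Col9a2, a FACIT of cartilage, was highest in day 2 Sox1+FoxA2- cells, at 68.2, 24.6 and 506, of which replicate 3 was far above the others. Col13a1, Col22a1, Col24a1, Col25a1 and Col20a1, along with Col8a1, Col9a1, Col9a3 and Col6a4, were named because they were among the 12 highest members in at least 1 condition, and none was called in a comparison. Their highest condition means ran from 69.5 (Col9a3) to 233 (Col22a1). The 8 remaining measured members had highest condition means of 42.8 to 155 and 0 calls.

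Genes that make and use collagen were counted from lists, in Sox1-FoxA2+ over Sox1+FoxA2- cells. Of 8 basement membrane partners (laminin chains, nidogens, perlecan and Sparc, a collagen-binding protein), 4 higher and 0 lower were called at day 4, 5 higher and 0 lower at day 6, 6 higher and 0 lower in day 4 progeny and 7 higher and 0 lower in day 6 progeny. At day 6 the log2 fold change was 7.82 for Lama1, 5.83 for Lamb1 and 6.01 for Sparc. Of 19 genes for prolyl and lysyl hydroxylation and chaperones, which modify and fold collagen chains in the endoplasmic reticulum, 5 higher and 0 lower were called at day 4, 8 higher and 0 lower at day 6, 8 higher and 0 lower in day 4 progeny and 10 higher and 2 lower in day 6 progeny. P4ha1, a prolyl hydroxylase subunit, was at 4.01, Plod2, a lysyl hydroxylase, at 4.08 and Serpinh1, the collagen chaperone HSP47, at 3.60 at day 6. The 2 genes lower in day 6 progeny were P4ha3 (-1.63) and Fkbp10 (-1.64). Procollagen processing, the trimming of fibrillar precursors, had 0 higher and 1 lower of 8 called at day 6, 0 higher and 1 lower in day 4 progeny and 0 higher and 3 lower in day 6 progeny, among them Pcolce (-3.22) and Adamts2 (-3.01). Of 6 cross-linking enzymes, 1 was called lower in day 6 progeny (Loxl1, -3.41) and 0 in the other 3 comparisons. Their summed normalized counts were 16473 to 36256 in day 6 Sox1-FoxA2+ and 1705 to 4793 in day 6 Sox1+FoxA2- libraries, and 17150 to 46184 and 5939 to 14948 in day 6 progeny, without overlap on either arm, and 10645 to 12256 against 2161 to 9333 at day 4, also apart, and 5706 to 15099 against 6394 to 7665 in day 4 progeny, which overlapped. The median log2 fold change of these enzymes was 1.39 at day 4, 1.62 at day 6, 0.39 in day 4 progeny and -0.28 in day 6 progeny. Of 7 collagen receptors Ddr2, a receptor tyrosine kinase for fibrillar collagen, was lower at day 6 (-4.24) and in day 6 progeny (-2.85). At day 6 the median log2 fold change was 4.92 over the basement membrane partners, 2.70 over the hydroxylation and chaperone genes and -1.31 over the processing genes, against the -0.30 of all genes. The shares of all genes called in these comparisons are those given above.

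Other cell types were followed with marker lists, summed per library in the same way. Against Sox1+FoxA2- cells, 5 of 11 parietal endoderm markers were called higher in Sox1-FoxA2+ cells at day 4 and 7 at day 6. In progeny 9 were called higher at day 4 and 11 at day 6, and 0 were lower in these comparisons. The share of all genes called also rose, from 0.266% at day 4 and 1.32% at day 6 to 1.97% and 6.91% in progeny. The counts of the other lists below stand against the same shares. Sparc, Lama1, Lamb1 and Lamc1 are also among the basement membrane partners. At day 6 Thbd alone of them was at 0 in all Sox1+FoxA2- libraries. Visceral endoderm markers summed to 66971 to 111568 in day 6 Sox1-FoxA2+, 16406 to 77102 in Sox1+FoxA2+ and 2279 to 3964 in Sox1+FoxA2- libraries, with Afp and Ttr at 0 in Sox1-FoxA2+ and Apoa1 at 0 in Sox1+FoxA2- libraries; 2 of 7 were called higher. In day 6 progeny, smooth muscle markers summed to 8986 to 21671 in Sox1+FoxA2+ and 3547 to 11024 in Sox1-FoxA2+ libraries, below the Sox1+FoxA2- progeny. Of 4 smooth muscle markers, 3 were called lower in Sox1-FoxA2+ than in Sox1+FoxA2- progeny of day 6. Of 6 tested neuroectoderm markers, 6 were lower there, and the list summed to 46747 to 76973 and 6479 to 10755 in Sox1+FoxA2- and Sox1-FoxA2+ progeny of day 6. Endothelial markers, of cells that also make type IV collagen, summed to 1396 to 2669 in day 6 Sox1-FoxA2+ and 2319 to 4152 in Sox1+FoxA2- libraries, and pluripotent markers to 4721 to 5701 and 3548 to 17606. The part of these markers in the collagen levels was likewise not tested.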

How the data were processed

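Bulk RNA-seq was read from a table of raw read counts per gene deposited by the authors. Per the labels and the study's methods, the library kit was SMART-Seq Stranded; the authors used STAR, SAMtools and featureCounts with GENCODE M21 (GRCm38); versions were not given in the sources used here. The deposited counts behave as counts over whole genes without strand, and 92 lines without a gene name held 0 counts. Totals per library set the precision of low members.

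Genes were filtered in each fit with filterByExpr (minimum count 10, minimum total 15), scaled by TMM and tested two-sided with edgeR's robust quasi-likelihood test. Benjamini-Hochberg adjustment was over all genes tested (threshold 0.05, prior count 0.125). A fit held all populations of a day and arm, all days of a sorted population, or the sorted and progeny groups of a day without Sox1-FoxA2- cells. Filter, scaling and spread thus came from all groups of the fit, also those not compared. The sorted Sox1+FoxA2+ libraries with low Foxa2 therefore entered the other tests of their day. The SE is the unshrunk log2 fold change divided by the square root of F. Levels used DESeq2 size factors and exon kb outside other genes. Software was R 4.3.3 with edgeR 4.0.16, limma 3.58.1 and DESeq2 1.42.0, and numpy 2.4.6, pandas 2.3.3 and matplotlib 3.10.9 under Python 3.11.15. The scripts were tested on simulated data.

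Named were Col4a1, Col4a2, Col1a1, Col3a1, the other type IV, I and V chains, each other member called in a comparison and each member among the 12 highest in a condition. The members, gene lists and tests were chosen with earlier results of these data known. Replicate numbers were checked for pairing by correlating deviations from group means over 5000 genes: in 10 of 23 comparisons every pair exceeded 0.1, and single pairs ranged from -0.329 to 0.596. Alternatives were RLE size factors, DESeq2, no filter on low counts, a replicate block, 1 fit of all 57 libraries and leaving out each library. Tests without robust estimation, on halved counts, and the balance per kb of gene span were added after seeing the data.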

Additional observations from a re-analysis of the deposited data

How the results depend on the processing

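Each comparison was refitted under the alternatives, and the counts of called members below are those that moved by more than 1.5 times. In each case the cause was not tested. The share of all genes called under each alternative is not given here, so a count cannot be read against it. DESeq2 called 3 members in Sox1-FoxA2+ over Sox1+FoxA2- cells at day 2, 3 at day 4 and 13 in day 6 progeny. In Sox1+FoxA2+ cells it called 3 at day 6 and 3 in day 6 progeny against Sox1+FoxA2- cells, and 3 at day 4, 6 at day 6 and 7 in day 6 progeny against Sox1-FoxA2+ cells. It called 5 for Sox1-FoxA2+ over Sox1-FoxA2- cells at day 6, and over time 5 for Sox1-FoxA2+, 7 for Sox1+FoxA2- and 17 for Sox1-FoxA2- cells. For progeny against sorted cells it called 4, 4 and 11 at day 4 and 4, 17 and 6 at day 6 (Sox1-FoxA2+, Sox1+FoxA2- and Sox1+FoxA2+), and 2 in the interaction. With no filter on low counts, in the same order, the counts were 2 (day 2), 2 (day 4), 5 (day 4 progeny) and 17 (day 6 progeny) for Sox1-FoxA2+ over Sox1+FoxA2- cells, 1 and 10 in day 4 and day 6 progeny for Sox1+FoxA2+ over Sox1+FoxA2-, and 2 (day 4), 3 (day 6) and 12 (day 6 progeny) for Sox1+FoxA2+ over Sox1-FoxA2+. They were 5 against Sox1-FoxA2- cells, 5, 1 and 10 over time, 10, 10 and 13 (day 4) and 9, 18 and 10 (day 6) for progeny against sorted cells, and 3 in the interaction. The replicate block called 2 for Sox1-FoxA2+ over Sox1+FoxA2- and 2 for Sox1+FoxA2+ over Sox1-FoxA2+ cells at day 4, 1 for the latter at day 6 and 5 in day 4 progeny, 1 for Sox1+FoxA2+ over Sox1+FoxA2- in day 6 progeny, 4 against Sox1-FoxA2- cells and 1 for Sox1+FoxA2- progeny against sorted cells at day 4; over these and all other comparisons with a block it ended 4 of 42 calls and added 17, and moved no other count by over 1.5 times. One fit of all 57 libraries called 2, 2, 2 and 1 for Sox1-FoxA2+ over Sox1+FoxA2- and Sox1+FoxA2+ over Sox1-FoxA2+ at day 4 and Sox1+FoxA2+ over Sox1+FoxA2- and over Sox1-FoxA2+ at day 6. In progeny it called 3 for Sox1-FoxA2+ over Sox1+FoxA2- at day 6 and 0 for Sox1+FoxA2+ over Sox1-FoxA2+ on both days. It called 8 in Sox1-FoxA2- cells over time, and 1 (day 4, Sox1+FoxA2+) and 4 (day 6, Sox1+FoxA2-) for progeny against sorted cells. RLE size factors called 0 for Sox1+FoxA2+ over Sox1-FoxA2+ at day 4. They moved the mean log2 scaling between the groups compared by 0.18 and 0.21 for Sox1+FoxA2+ over Sox1+FoxA2- and over Sox1-FoxA2+ at day 4. The shift was 0.11 and 0.21 for the same at day 6 and -0.10 for Sox1-FoxA2+ over Sox1+FoxA2- at day 6. It was -0.11, -0.13 and -0.15 for day 6 progeny against sorted cells. Chosen after seeing the data, the test without robust estimation called 2 for Sox1-FoxA2+ over Sox1+FoxA2- and 2 for Sox1+FoxA2+ over Sox1-FoxA2+ at day 4, 3 and 1 for Sox1+FoxA2+ over Sox1+FoxA2- and over Sox1-FoxA2+ at day 6, and for progeny against sorted cells 1, 2 and 4 at day 4 and 2 at day 6 (Sox1-FoxA2+). Halved counts, also chosen after seeing the data, called 4 against Sox1-FoxA2- cells and 4 for day 4 Sox1+FoxA2+ progeny against sorted cells. Leaving out 1 library at a time gave 0 to 1 calls in both day 4 comparisons with a call, 0 to 3 for Sox1-FoxA2+ over Sox1+FoxA2- at day 6, 3 to 6 in day 4 progeny and 5 to 10 in day 6 progeny. For Sox1+FoxA2+ over Sox1-FoxA2+ it gave 0 to 2 at day 6, 2 to 5 in day 4 progeny and 1 to 3 in day 6 progeny, and 0 to 1 over Sox1+FoxA2- in day 4 progeny. It gave 0 to 3 against Sox1-FoxA2- cells, 2 to 8 over time in Sox1-FoxA2- cells, and for progeny against sorted cells 0 to 5 and 0 to 3 at day 4 (Sox1+FoxA2-, Sox1+FoxA2+) and 0 to 4, 2 to 6 and 0 to 4 at day 6. For Col4a1, the log2 fold change of day 4 Sox1+FoxA2+ over Sox1+FoxA2- cells, which was not called, ran from -0.14 (without Sox1+FoxA2+ replicate 1) to 2.34 when 1 library was left out. With the other fibrillar chains added, the balance difference in day 6 progeny was 5.35.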
